A study of Mus musculus with 22 samples.

Results

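Myl1, Fgf14 and Sycn are 3 genes whose levels differed widely between colon tumours of mice kept on the same regimen, and they were chosen by that spread from 22203 probe sets measured on each array. Each is represented by 1 probe set, and all 3 members were found. The tumours came from 22 male FVB/N mice, an inbred strain, and every tumour, those of the control mice included, had been induced with the carcinogen azoxymethane. The formerly obese group held 5 mice switched from a high-fat to a low-fat diet. The obese sulindac group held 6 mice on the high-fat diet, with 60% of its energy as fat, that received sulindac, an anti-inflammatory drug that inhibits cyclooxygenases. The obese group held 5 mice on the same high-fat diet without the drug, and the control group held 6 mice on a low-fat diet that supplied 10% of energy as fat. Total RNA of each tumour was labelled and hybridised to a Clariom S array, and levels are given on a scale read as log2, so that 1 unit is a doubling.

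Myl1 encodes an alkali light chain of the myosin motor of fast skeletal muscle, where it sits on the neck of the myosin heavy chain. Fgf14 belongs to the fibroblast growth factor homologous factors, which share the fold of the growth factors but stay inside the cell, where they bind voltage-gated sodium channels and shape the firing of neurons. Sycn encodes syncollin, a protein of the inner face of the zymogen granule membrane in the acinar cells of the pancreas, which store digestive enzymes there.

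The 3 genes lie on different chromosomes. In the mouse assembly GRCm38.p6, Myl1 spans chr1:66924295-66947932 on the minus strand, Fgf14 chr14:123974441-124677686 on the minus strand, and Sycn chr7:28540885-28542210 on the plus strand. The 250 bases before a RefSeq start site of each gene are shown because the members were high in some tumours and low in others, and the bases before a start are where transcription is set up. They are printed 5' to 3' on the strand of the gene. Capitals mark matches to the TATA box motif TATAAA on either strand. They also mark the E-box CAGCTG, a palindrome of the kind that basic helix-loop-helix factors such as the myogenic ones bind. A further motif searched on both strands was the GC box GGGCGG. A match on the other strand shows here as the reverse complement of the motif, and no match overlapped another.
Myl1, chr1:66945057-66945306: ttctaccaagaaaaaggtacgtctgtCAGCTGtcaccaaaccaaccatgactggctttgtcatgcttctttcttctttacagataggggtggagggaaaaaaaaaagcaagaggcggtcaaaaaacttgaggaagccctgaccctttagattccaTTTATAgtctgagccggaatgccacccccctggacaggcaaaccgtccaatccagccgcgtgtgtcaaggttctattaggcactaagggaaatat
Fgf14, chr14:124192547-124192796: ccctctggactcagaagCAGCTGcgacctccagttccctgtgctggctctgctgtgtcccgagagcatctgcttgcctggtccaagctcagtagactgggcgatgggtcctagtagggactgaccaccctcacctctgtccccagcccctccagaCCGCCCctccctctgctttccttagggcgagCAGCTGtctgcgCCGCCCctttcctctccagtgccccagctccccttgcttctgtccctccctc
Sycn, chr7:28540635-28540884: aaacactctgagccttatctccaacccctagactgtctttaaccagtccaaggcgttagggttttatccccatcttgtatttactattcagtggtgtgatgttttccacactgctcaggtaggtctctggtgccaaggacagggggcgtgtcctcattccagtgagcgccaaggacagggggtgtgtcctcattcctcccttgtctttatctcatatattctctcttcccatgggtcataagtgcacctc
The Myl1 stretch held 1 TATAAA and 1 CAGCTG, that of Fgf14 held 2 CAGCTG and 2 GGGCGG, and that of Sycn held none of the 3 motifs. Among 32851 RefSeq promoters of this length, 12.4% held TATAAA, 13.0% CAGCTG and 32.7% GGGCGG. CpG dinucleotides numbered 6 in Myl1, 7 in Fgf14 and 3 in Sycn, against a median of 6 over all promoters. The starts shown for Myl1 and Fgf14 lie inside the annotated genes, which have longer transcripts, and the 1 probe set of each gene does not tell transcripts apart.

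Over the 22 tumours, Myl1 lay between 4.56 and 14.14 (median 6.17), Fgf14 between 4.04 and 13.66 (median 6.12), and Sycn between 4.96 and 15.07 (median 9.55). The SD between tumours of the same regimen was 3.76 for Myl1, the largest of all probe sets. It was 2.90 for Fgf14, rank 8, and 2.86 for Sycn, rank 10, where the median of all probe sets was 0.348 and the 99th percentile 1.60. Near these ranks, Lyz1, at rank 9, had an SD of 2.89, and Defa3, at rank 11, one of 2.83. These values chose the members and are a description only. Array medians lay between 6.67 and 6.83, and the median correlation between arrays was 0.977. Control Mouse_26, which is high for both Myl1 and Fgf14 below, had the array least like the others, with a median correlation of 0.965.

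Myl1 was either high or low. In formerly obese mice its levels were 14.14, 10.52, 5.44, 5.06 and 4.56. In obese sulindac mice the lowest level was 4.72, the median 6.17 and the highest 13.13, and in obese mice the levels were 13.07, 12.79, 7.10, 5.02 and 4.98. In control mice the lowest was 4.96, the median 9.05 and the highest 12.83. No tumour lay between 7.10 and 10.52, a gap of 3.42 that amounts to 10.7-fold on the linear scale. It split the tumours into 8 above and 14 below, and the 8 comprised 2 formerly obese, 1 obese sulindac, 2 obese and 3 control tumours. Every regimen therefore held tumours on both sides. A gap at least as large was found in 60 probe sets, Myl1 included. It left at least 3 tumours on each side in 2 of them, and at least 6 on each side in Myl1 alone. Myl1 was chosen for its spread in these same levels, so these counts are a description only.

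Fgf14 stood out in 3 tumours. In formerly obese mice its levels were 13.66, 6.96, 6.19, 5.39 and 4.85. In obese sulindac mice the lowest was 4.98, the median 6.03 and the highest 7.13, and in obese mice the levels were 13.36, 8.04, 7.59, 6.61 and 4.82. In control mice the lowest was 4.04, the median 5.31 and the highest 12.91. The 3 high tumours, formerly obese Mouse_140, obese Mouse_113 and control Mouse_26, were separated from the other 19 by a gap of 4.04, or 16.4-fold. No obese sulindac tumour lay above the gap, and the SD there was 0.786, against 3.58 in formerly obese, 3.20 in obese and 3.36 in control mice. With 1 high tumour in each of the other regimens, this difference in spread was not tested.

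Sycn was graded, so the description on-off does not hold for it. In formerly obese mice its levels were 13.39, 13.26, 10.20, 8.34 and 5.03. In obese sulindac mice the lowest was 7.82, the median 9.59 and the highest 15.07, and in obese mice the levels were 11.35, 8.46, 7.93, 5.49 and 4.96. In control mice the lowest was 5.83, the median 10.16 and the highest 12.62. The largest gap, 1.68, set apart a single tumour, obese sulindac Mouse_X, and the others ran without a break of that size. Levels of all 4 regimens overlapped.

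**Figure D1:**
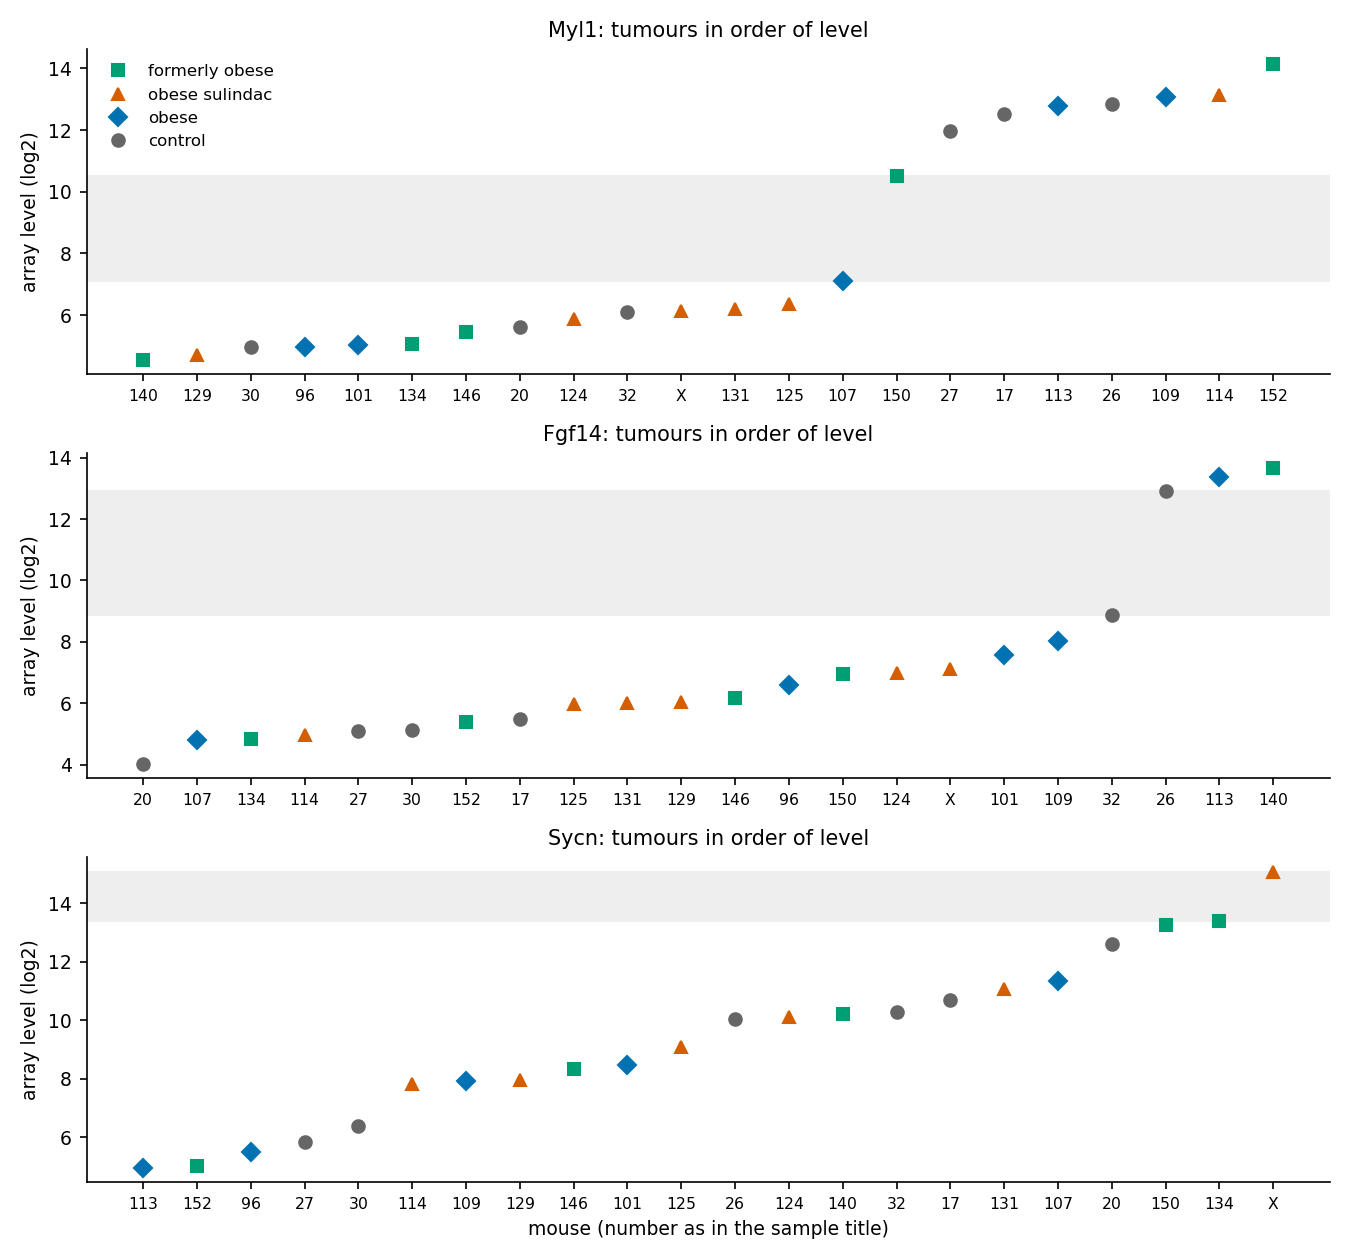
Array level (log2, vertical axis) of Myl1, Fgf14 and Sycn in each of 22 tumours, which are ordered by level along the horizontal axis and named by mouse; symbols give the regimen and the grey band is the largest gap. Myl1 has 8 tumours above its gap and Fgf14 has 3, while the gap of Sycn sets apart 1 tumour.

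High Myl1 and high Fgf14 coincided in 2 tumours, control Mouse_26 and obese Mouse_113. A further 6 tumours were high in Myl1 alone, formerly obese Mouse_140 in Fgf14 alone, and 13 in neither. Because the tumours fell into clusters, correlations between members were taken inside each cluster, with no regimen means removed, which gave 5 relations. Among the 8 tumours high in Myl1, Myl1 and Sycn had r = -0.68 and rho = -0.45 (exact permutation p = 0.0595 and 0.267, two-sided, p adjusted over the 5 relations 0.298 for r). Without the 2 tumours of extreme Myl1, formerly obese Mouse_150 and Mouse_152, that r was 0.20, so it rested on them. Among the 14 tumours low in Myl1 it was 0.43, with rho = 0.54 (permutation p = 0.125 and 0.0494, adjusted 0.312 for r). Myl1 and Fgf14 had r = 0.03 in the 8 and -0.33 in the 14 tumours, and Fgf14 and Sycn had r = 0.04 in the 19 tumours low in Fgf14 (adjusted permutation p between 0.427 and 0.934). No relation between members passed the test.

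Diet and drug were compared next. The labels state which regimen each tumour belongs to, and the comparisons address whether obesity, its reversal by diet or sulindac moved the members. No member passed the test in any comparison. In obese against control tumours, Myl1 averaged 8.59 ± 4.05 in obese (SD, n = 5) and 9.0 ± 3.79 in control mice (SD, n = 6), a difference of -0.41 ± 2.09 (SE, limma adjusted p = 0.9998). Fgf14 averaged 8.08 ± 3.20 in obese and 6.93 ± 3.36 in control mice, a difference of 1.16 ± 1.62 (SE). Sycn averaged 7.64 ± 2.57 in obese and 9.31 ± 2.65 in control mice, a difference of -1.67 ± 1.59 (SE). Across all 22203 probe sets, limma called 0 higher or lower, 0% of them, in this and in each of the 5 other pairs of regimens, while an unadjusted p under 0.05 took between 4.03% and 6.63% of them (5.69% for formerly obese against obese, 6.55% for obese sulindac against obese, 5.54% for formerly obese and 6.63% for obese sulindac against control, and 6.62% for obese sulindac against formerly obese).

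After the diet switch, Sycn averaged 10.04 ± 3.52 in formerly obese mice (SD, n = 5) and 7.64 ± 2.57 in obese mice. The difference of 2.41 ± 1.66 (SE) had a 95% interval of -1.05 to 5.86 and a limma adjusted p of 0.887. Myl1 averaged 7.94 ± 4.22 in formerly obese and 8.59 ± 4.05 in obese mice, and Fgf14 7.41 ± 3.58 in formerly obese and 8.08 ± 3.20 in obese mice. Their differences were -0.65 ± 2.19 and -0.67 ± 1.69 (SE). Under sulindac, Sycn averaged 10.18 ± 2.70 in obese sulindac mice (SD, n = 6) and 7.64 ± 2.57 in obese mice. This difference, 2.54 ± 1.59 (SE), had a 95% interval of -0.77 to 5.85, a limma adjusted p of 0.834 and an exact permutation p of 0.149 (two-sided; the smallest possible is 0.00216). Fgf14 averaged 6.19 ± 0.786 in obese sulindac and 8.08 ± 3.20 in obese mice, a difference of -1.90 ± 1.62 (SE; exact permutation p = 0.171). Myl1 averaged 7.07 ± 3.03 in obese sulindac and 8.59 ± 4.05 in obese mice, a difference of -1.52 ± 2.09 (SE). These comparisons share the obese tumours. The 95% interval of Fgf14 under sulindac was -5.25 to 1.46. These intervals hold 0 and reach far to 1 side of it, so with 5 or 6 tumours per regimen a large difference to that side could not be told apart from none.

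**Figure D2:**
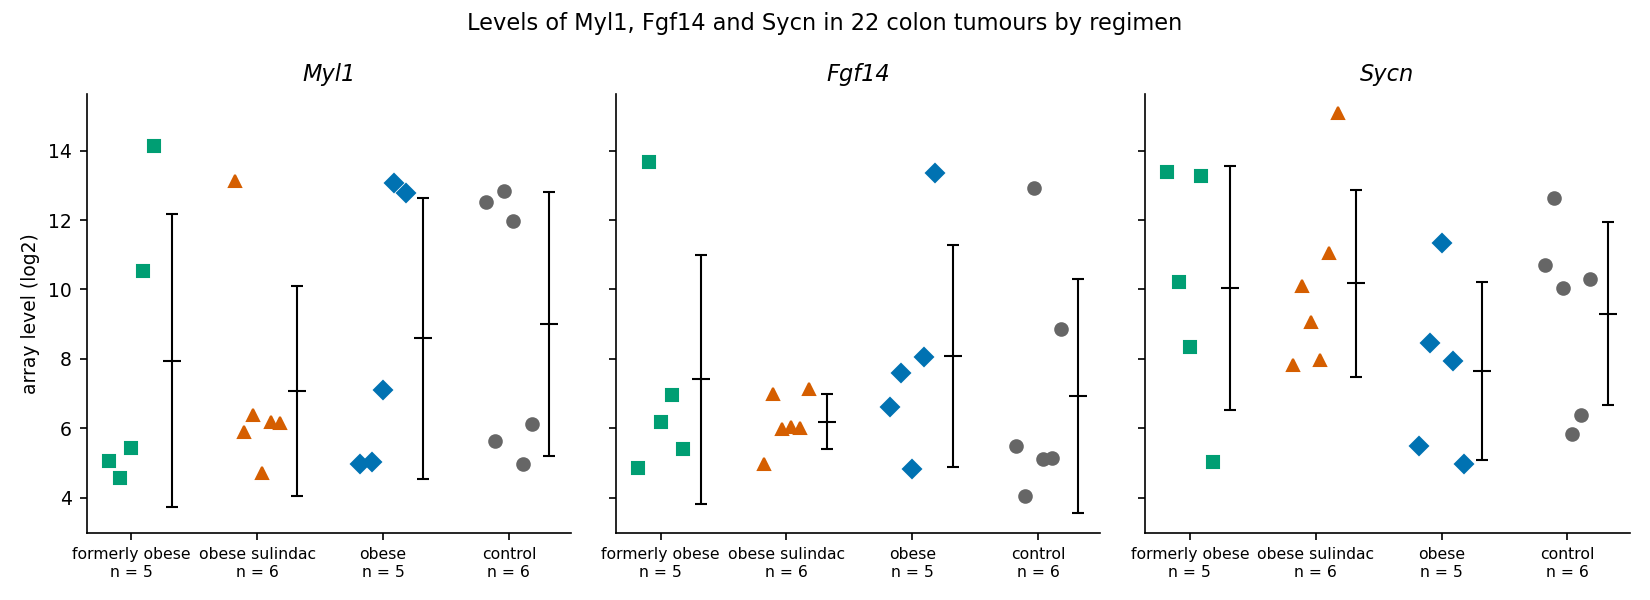
Array level (log2) of Myl1, Fgf14 and Sycn by regimen; each symbol is 1 tumour, and the bar beside each group is its mean ± SD (n = 5 formerly obese, 6 obese sulindac, 5 obese, 6 control). Regimens overlap for every gene, and the means of Sycn are 10.04, 10.18, 7.64 and 9.31 in that order.

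By mean level, the order of regimens for Myl1 was control, obese, formerly obese and obese sulindac. For Fgf14 it was obese, formerly obese, control and obese sulindac, and for Sycn it was obese sulindac, formerly obese, control and obese. No neighbours in any of these orders differed beyond the spread between tumours.

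The genes that varied with each member were found by regressing every other probe set, 22202 in number, on the member's level with the regimen means in the model. Likeness is given as Pearson's r over the 22 tumours after removal of regimen means. These points share arrays and, for Myl1 and Fgf14, the clusters above, so r is a description and has no p of its own. Where r is given inside a cluster, no regimen means were removed, so it can also hold differences between regimens.

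No gene passed the limma test for varying with Myl1 (0% of the probe sets; 1058, or 4.77%, had an unadjusted p under 0.05). Of 25 skeletal muscle genes, 0 passed and 11 had a positive r, with a median r of -0.09, where the median over all other probe sets was -0.0021. Mylpf, the regulatory light chain that pairs with Myl1 in fast fibres, lay between 5.13 and 6.03 in the 8 tumours high in Myl1 and between 4.69 and 6.17 in the 14 others (r = 0.32). Ckm, the muscle creatine kinase, lay between 5.30 and 5.87 in the 8 and between 5.27 and 6.26 in the 14. The fast heavy chains Myh1, Myh2 and Myh4 did not exceed 5.49 in any tumour, and the muscle-determining factors Myod1 and Myog peaked at 5.12 and 4.68. The mean level of the list had a range of 4.74 to 4.94 in formerly obese, 4.68 to 4.90 in obese sulindac, 4.72 to 4.84 in obese and 4.74 to 4.89 in control tumours. Acta1, the skeletal muscle actin, was the most variable of the list and reached 10.45, but its r with Myl1 was -0.02. The level that these arrays give to an absent transcript is not known, so none of these genes is called absent.

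Among other myosin light chains, r with Myl1 was -0.40 for Myl2 and 0.57 for Myl3, the ventricular chains of the heart, -0.19 for the atrial and embryonic Myl4, and 0.10 and 0.11 for the non-muscle Myl6 and Myl6b. None of them passed (limma adjusted p = 0.980 to 0.991). Myl6, the chain of non-muscle and smooth muscle myosin, had levels of 13.36 to 14.50 in all tumours. Smooth muscle genes, which the muscle coat of the gut expresses, had a positive r in 1 of 13 over all tumours and 0 passed. Inside the 8 tumours high in Myl1, with no regimen means removed, the direction was the other one: the mean of the smooth muscle list had r = 0.89 and rho = 0.93 with Myl1 (two-sided exact permutation p = 0.00397 and 0.00223; adjusted over 104 relations, 0.0825 and 0.0580). It was 0.86 without formerly obese Mouse_150 and Mouse_152, the 2 farthest from the median. Inside the 14 others r was 0.07 (permutation p = 0.809). The mean of 15 genes of neurons and enteric glia had r = 0.79 and rho = 0.90 inside the 8 (exact permutation p = 0.0139 and 0.00456, adjusted 0.207 and 0.0949). The mean of the skeletal muscle list went the other way there, with r = -0.71 and rho = -0.48 (exact permutation p = 0.0360 and 0.243, adjusted 0.402 and 0.713). Its r was -0.32 without Mouse_150 and Mouse_152. No list mean passed the adjusted threshold with Myl1 in either cluster.

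**Figure D3:**
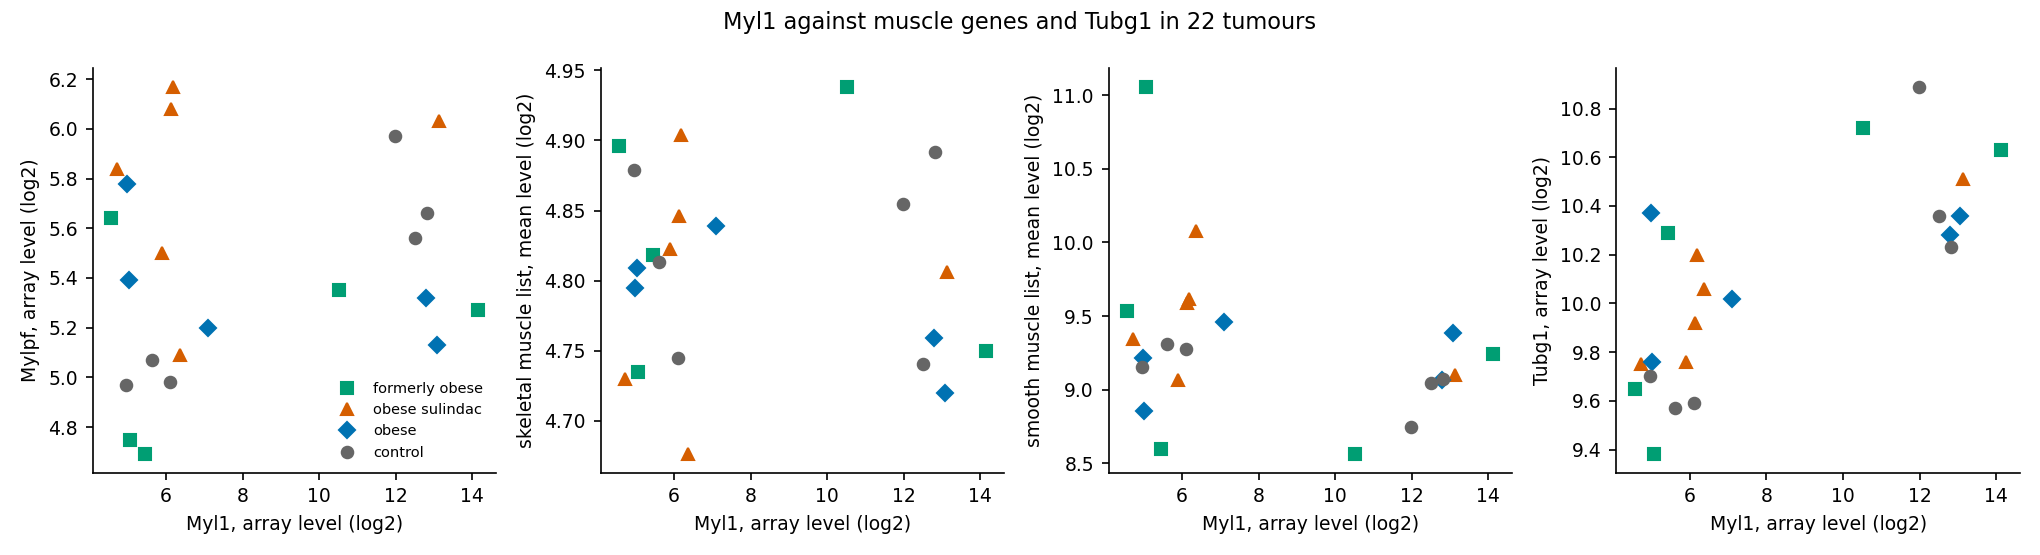
Each point is 1 of 22 tumours; Myl1 (log2, horizontal axes) is set against Mylpf, the mean level of 25 skeletal muscle genes, the mean level of 13 smooth muscle genes and Tubg1 (log2, vertical axes), with symbols for the regimen. The tumours high and low in Myl1 overlap for Mylpf and for the skeletal muscle mean, and Tubg1 lies between 10.23 and 10.89 in the 8 high tumours.

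The genes most like Myl1 were Meiob (r = 0.78), a single-strand DNA binding protein of meiosis, Tubg1 (0.76), the gamma-tubulin that nucleates microtubules, Atp6v1fnb (0.74), Ccin (0.73), a cytoskeletal protein of sperm heads, Fads2b (0.73), Naglu (0.73), a lysosomal enzyme of heparan sulfate breakdown, Pip4k2b (0.72), a phosphoinositide kinase, and Rabl3 (0.71). Their limma adjusted p was 0.980, so none passed. Meiob, Atp6v1fnb, Ccin and Fads2b did not exceed 5.75 in any tumour. Tubg1 lay between 10.23 and 10.89 in the 8 tumours high in Myl1 and between 9.38 and 10.37 in the 14 others, and these ranges overlapped. Inside the 8 tumours the r of these genes with Myl1 ranged from -0.38 to 0.75, and inside the 14 from -0.19 to 0.61. Among genes with an SD of at least 0.5 the likeness was led by Naglu, followed by Hpse (0.67), the heparanase that cuts heparan sulfate, Rad51c (0.66), a recombination protein, Txndc16 (0.66), Scd1 (0.65), a fatty acid desaturase, Mettl22 (0.64), Slc7a3 (0.64), an amino acid transporter, and Rbm43 (0.63). The most opposed were Exo5 (-0.68), Acbd3 (-0.68), Taf11 (-0.67) and Lonrf1 (-0.66). The 10 genes nearest to Myl1 on chromosome 1, Erbb4 (0.51) among them, had r between -0.25 and 0.51, and 0 passed.

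With Fgf14, 188 probe sets passed the limma test, 0.847% of those tested: 143 rose with it (0.644%) and 45 fell (0.203%), while 13.1% had an unadjusted p under 0.05. These calls rest on the 3 high tumours. With Fgf14 replaced by its rank, 0 passed, and among the 19 lower tumours alone, 0 passed. Without control Mouse_26, whose array was least like the others, 23 passed, without obese Mouse_113, 49, and without formerly obese Mouse_140, 0.559% of the probe sets. Without obese Mouse_96, 388 passed.

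The genes most like Fgf14 were led by Atp4a (r = 0.91, slope 0.43 ± 0.05 log2 units per unit of Fgf14, SE, limma adjusted p = 1.05e-04), the catalytic subunit of the gastric proton pump. Its level was 9.0 in formerly obese Mouse_140, 9.82 in obese Mouse_113 and 10.49 in control Mouse_26, and lay between 5.54 and 7.41 in the 19 others. Pkd2l1 (r = 0.87, slope 0.82 ± 0.10, SE, adjusted p = 5.08e-04), an ion channel known from sour taste cells, had 11, 13.29 and 11.82 in the same 3 tumours and 4.36 to 9.46 in the others. Dab1 (0.88), the adaptor of reelin signalling in migrating neurons, had 9.12, 11.76 and 10.58, against 4.64 to 8.57. Jam2 (0.87), a junctional adhesion molecule of endothelium, had 11.25, 13.31 and 13.61, against 8.18 to 10.74. All 3 tumours lay above the 19 others for each of these genes.

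Wscd1 (0.91), Inhbb (0.89), the subunit of activin B, Kcnk16 (0.87), a background potassium channel known from the pancreas, and Fam189a1 (0.87) completed the 8 most alike, with limma adjusted p between 1.05e-04 and 5.46e-04. The 3 tumours lay above the 19 others for all 8 genes. In the 19 lower tumours their r with Fgf14 ranged from 0.28 to 0.61. Among the most opposed genes were Relb (-0.83), a subunit of the NF-kappaB factors, Pkp3 (-0.81), a plakophilin of desmosomes, and Atp8b1 (-0.80), a phospholipid flippase (limma adjusted p = 0.00566 to 0.00941). Pkp3 had 7.48, 6.93 and 7.43 in Mouse_140, Mouse_113 and Mouse_26, and 7.68 to 9.14 in the others. Relb had 6.99, 7.53 and 6.26 in the same tumours and 6.96 to 8.89 in the others, so its ranges overlapped. In the 19 lower tumours r with Fgf14 was -0.51 for Relb, -0.49 for Pkp3 and -0.33 for Atp8b1. Of all 188 probe sets that passed, 78 had the 3 tumours wholly above or wholly below the other 19. The calls rest on these same 3 tumours, and the count was not taken over the probe sets that did not pass. It is therefore a description of the calls only.

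**Figure D4:**
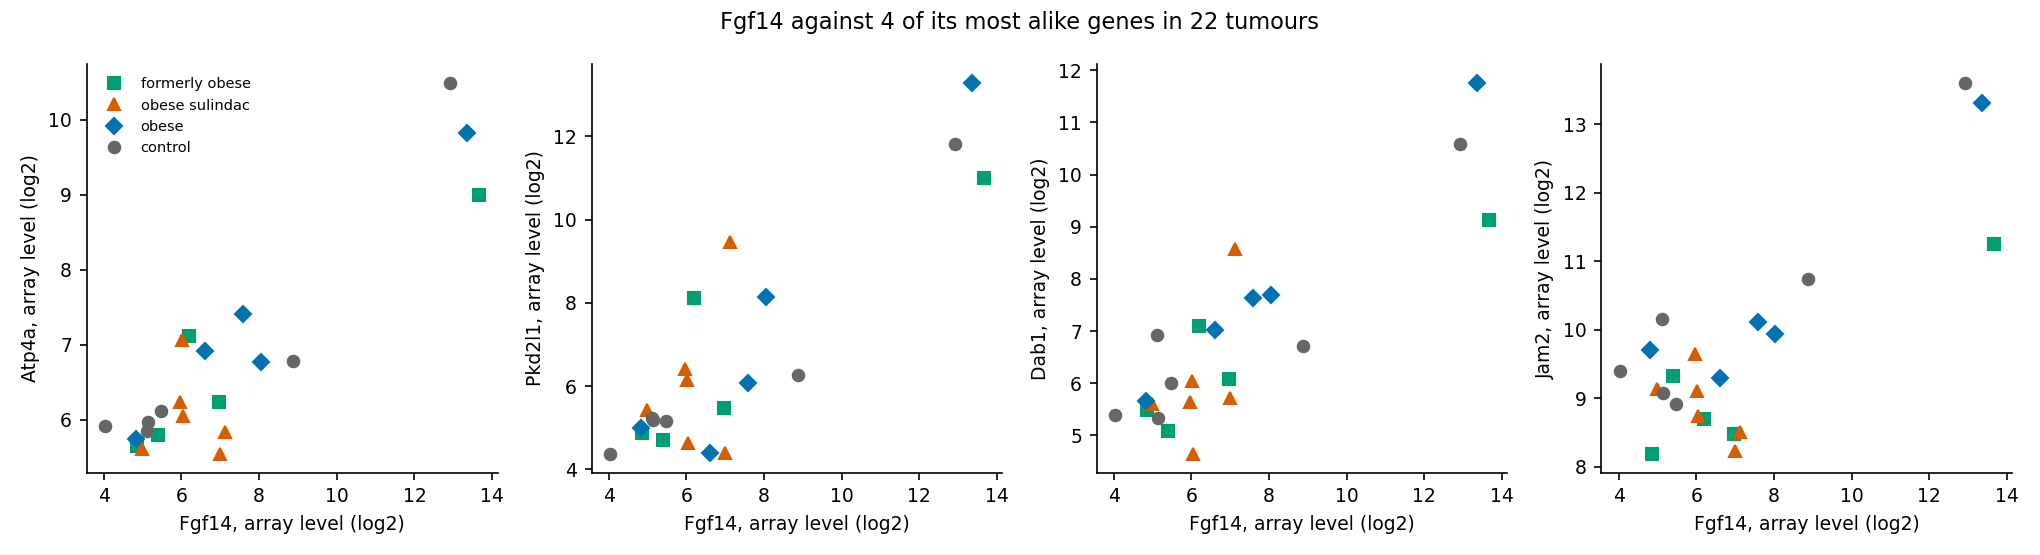
Each point is 1 of 22 tumours; Fgf14 (log2, horizontal axes) is set against Atp4a, Pkd2l1, Dab1 and Jam2 (log2, vertical axes), with symbols for the regimen. The 3 tumours high in Fgf14 have the 3 highest levels of all 4 genes, 9.0 to 10.49 for Atp4a against 5.54 to 7.41 in the other 19.

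No measured member of the family of Fgf14 and no gene of the lists of sodium channels, its known partners, and of neurons and enteric glia passed. Dab1 is in none of these lists. The homologous factors Fgf11, Fgf12 and Fgf13 had r of 0.21, -0.40 and -0.18 with it, and 0 of 10 voltage-gated sodium channel genes passed. Among these, Scn2b had the most negative r (-0.60, limma adjusted p = 0.130) and Scn3a the most positive (0.51, adjusted p = 0.275). Of 15 genes of neurons and enteric glia 0 passed, and 7 had a positive r. Elavl4, a neuronal RNA-binding protein, came nearest (r = 0.66, adjusted p = 0.0672), and the neuronal tubulin Tubb3 stayed between 4.63 and 5.86. Of 15 stomach and foregut genes 1 passed, Atp4a, with 12 of positive r and a median r of 0.09, against 0.0039 over all other probe sets. Inside the 19 tumours below the gap, with no regimen means removed, the mean level of this list had r = 0.71 with Fgf14 and rho = 0.69 (permutation p = 6.6e-04 and 0.00127, two-sided). The values adjusted over 104 relations were 0.0229 and 0.0541. Without the 2 tumours of extreme Fgf14, control Mouse_32 and obese Mouse_109, r was 0.66, and with the median of the list in place of its mean it was 0.34. Sox2 was the most variable gene of the list, with an SD of 2.92 within regimens and levels of 4.94 to 15.19, so it can weigh heavily in the mean. How much of the relation rests on Sox2 is not given here.

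On chromosome 14, the 5 measured genes nearest to Fgf14 all lie before it, and Itgbl1 overlaps its end. Their r ran from -0.18 to 0.43 and 0 passed. Farther before Fgf14, 3 genes passed that are named here after their values were seen. The stretch of 6 Mb that holds them, with 33 measured genes, was also chosen then, so its count is a description and no measure of how calls cluster. Zic5 (chr14:122459160-122465658, r = 0.82, limma adjusted p = 0.00281) and Zic2 (chr14:122475384-122480328, r = 0.72, adjusted p = 0.0295) are adjacent zinc-finger factors of neural development, and in none of the lists. Zic5 had 7.25, 10.73 and 12.34 in Mouse_140, Mouse_113 and Mouse_26 and 4.15 to 6.91 in the other 19. Zic2 had 5.49, 8.32 and 13.22, and 4.24 to 4.98 in the others. Abcc4 (r = 0.81, adjusted p = 0.00653), an export pump for cyclic nucleotides and drugs, had 13.81, 14.50 and 14.66, against 12.10 to 13.66. In the 19 lower tumours r with Fgf14 was 0.42 for Zic5, -0.35 for Zic2 and 0.54 for Abcc4. The median r over the 33 genes was 0.06, and 6 of 681 other genes of the whole chromosome passed. Over all chromosomes, 136 genes rose and 41 fell with Fgf14 among 19500, a similar share.

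With Sycn, 35 probe sets passed, 0.158% of those tested: 28 rose with it (0.126%) and 7 fell (0.0315%), while 8.33% had an unadjusted p under 0.05. The count shifted with single tumours. Without formerly obese Mouse_150 it was 65 and without Mouse_134, 15. It was 22, 22, 14, 20 and 10 without obese sulindac Mouse_114, Mouse_125, Mouse_129, Mouse_131 and Mouse_X, and 13 and 20 without obese Mouse_107 and Mouse_109. It was 7, 12 and 18 without control Mouse_20, Mouse_27 and Mouse_30. With obese Mouse_113 and obese sulindac Mouse_X, the 2 tumours farthest from the Sycn median, both left out, 2 passed, which were Klk1 and Zg16. Genes of goblet cells, which make the mucus of the colon, were among those that rose with it. Of 12 goblet cell genes 5 passed, all rising with Sycn, and all 12 had a positive r, with a median of 0.72 against 0.0081 over all other probe sets. Those that passed were Bcas1 (r = 0.87, limma adjusted p = 0.00191), Zg16 (0.84, adjusted p = 0.00576), a lectin of mucus that is also a zymogen granule protein of the pancreas, Clca1 (0.82, adjusted p = 0.00748), a protease of mucus, Retnlb (0.78, adjusted p = 0.0280) and Muc2 (0.77, adjusted p = 0.0326), the main gel-forming mucin. Zg16 had 15.89, 14.64, 14.42, 13.44 and 11.72 in formerly obese tumours. It ran from 13.11 to 15.48 (median 14.66) in obese sulindac tumours. Its levels were 15.33, 14.04, 13.81, 10.56 and 9.99 in obese tumours, and it ran from 11.28 to 14.56 (median 14.18) in control tumours. In obese mice the tumour with the lowest Sycn, Mouse_113, also had the lowest Zg16, and the tumour with the highest, Mouse_107, the highest.

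The mean level of the goblet list ranged from 11.14 to 13.20 in formerly obese, 10.54 to 12.93 in obese sulindac, 8.96 to 12.96 in obese and 9.94 to 13.09 in control tumours. After removal of regimen means it had r = 0.84 and rho = 0.87 with Sycn over 22 tumours (permutation p = 1e-05 for each, the smallest that the permutations can give; 0.00104 after adjustment over 104 relations). Without the 2 tumours of extreme Sycn, obese Mouse_113 and obese sulindac Mouse_X, r was 0.84. In whole tumours, fewer goblet cells and less RNA of these genes per cell cannot be told apart.

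The gene most like Sycn was Klk1, tissue kallikrein, a protease that releases kinins (r = 0.94, slope 0.66 ± 0.06 log2 units per unit of Sycn, SE, limma adjusted p = 2.13e-06). Klk1 had 17.24, 14.04, 13.56, 11.25 and 10.73 in formerly obese tumours and ran from 11.56 to 15.92 (median 13.26) in obese sulindac tumours. It had 14.68, 12.92, 12.66, 10.38 and 9.41 in obese tumours and ran from 9.92 to 14.67 (median 12.94) in control tumours. Without obese Mouse_113 and obese sulindac Mouse_X its r was 0.93, and it passed with each of the 22 tumours left out in turn (highest adjusted p 2.08e-05).

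**Figure D5:**
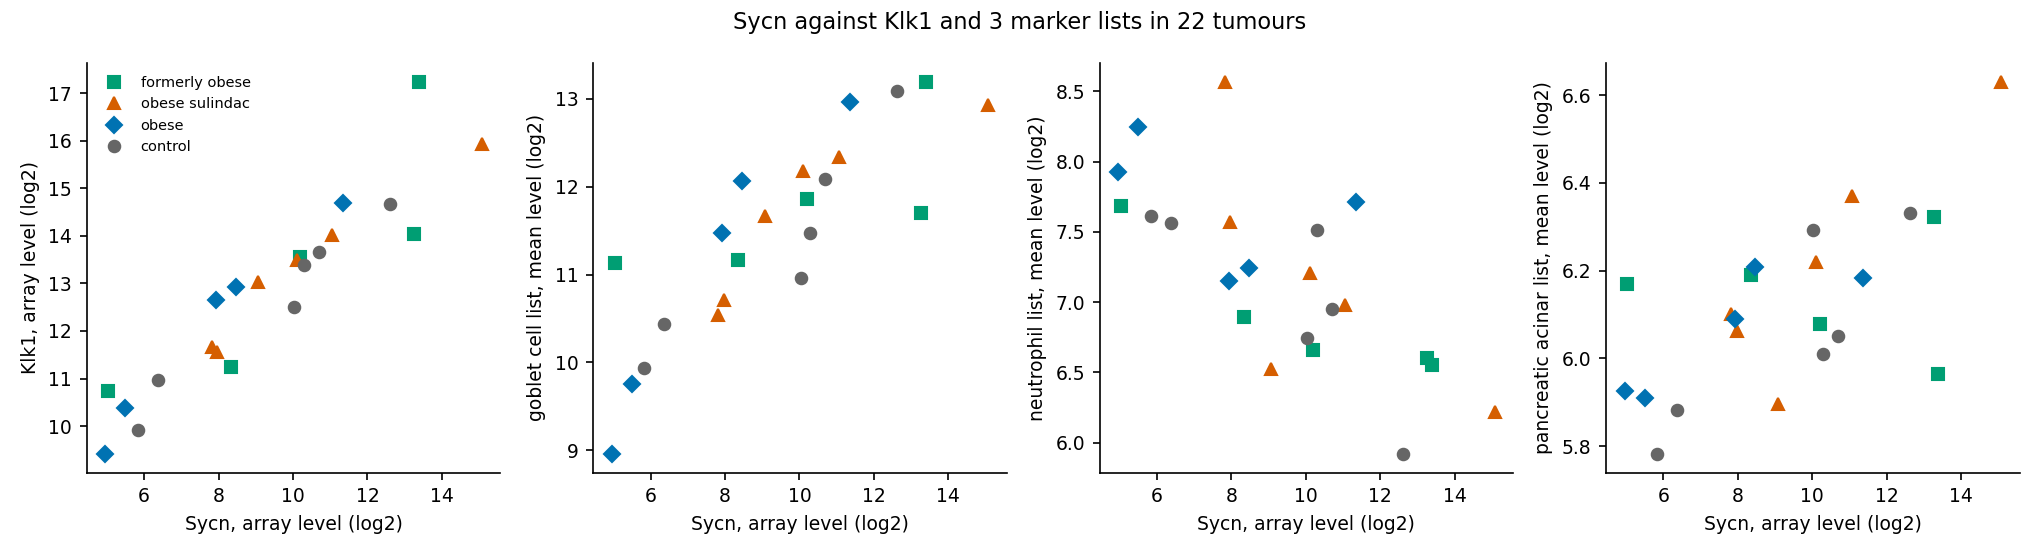
Each point is 1 of 22 tumours; Sycn (log2, horizontal axes) is set against Klk1, the mean level of 12 goblet cell genes, of 14 neutrophil genes and of 30 pancreatic acinar genes (log2, vertical axes), with symbols for the regimen. The levels are plotted with regimen means left in, whereas each r was taken after their removal. With Sycn, r is 0.94 for Klk1, 0.84 for the goblet mean and -0.72 for the neutrophil mean. The acinar mean, which spans 5.78 to 6.63, has r = 0.64, or 0.37 without Klk1. The goblet mean does not climb along the whole range of Sycn. It is 12.96 in obese Mouse_107 (Sycn 11.35) and 12.93 in obese sulindac Mouse_X (Sycn 15.07).

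The remaining genes most like Sycn were Cyp2c68 (0.85), a cytochrome P450, Nxpe5 (0.85), Thbs4 (0.83), a thrombospondin of the matrix, and Klk1b9 (0.81), a kallikrein close in sequence to Klk1, with limma adjusted p between 0.00558 and 0.0331. Whether the probes separate Klk1 from Klk1b9 is not given. Klk1b9 was the dimmer, with a mean level of 5.59, and passed with 11 of the 22 tumours left out in turn. Lrig3 (0.80), which joins the 8 most alike among genes with an SD of at least 0.5, had an adjusted p of 0.0258. Slc26a3, the chloride-bicarbonate exchanger of absorptive colonocytes, was the 1 gene of 16 in that list to pass (r = 0.78, adjusted p = 0.0289). Of these 16 genes 13 had a positive r (median 0.26), and the list mean had r = 0.50 with Sycn (permutation p = 0.0386, adjusted 0.402). Of 12 enteroendocrine genes 0 passed and 11 had a positive r (median 0.25). Their mean had r = 0.49 (permutation p = 0.0485, adjusted 0.409).

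The acinar cells of the pancreas are the known site of syncollin. Of 30 acinar genes 1 passed, Klk1, and 14 had a positive r, with a median of -0.0017. Besides Klk1 the largest r in size belonged to Amy2b (-0.75, limma adjusted p = 0.0953), pancreatic amylase, Nr5a2 (0.71, adjusted p = 0.0771), a nuclear receptor also made in gut crypts, Ctrl (-0.58), a chymotrypsin-like protease, Spink1 (0.57), a trypsin inhibitor, and Try4 (-0.48), a trypsin. The levels of the list differed widely. The acinar factors Ptf1a and Rbpjl peaked at 4.68 and 4.97, and the carboxypeptidase Cpa1 at 5.48, whereas the lipase-related Pnliprp1 spanned 9.41 to 17.17, Pnliprp2 8.63 to 15.58, the colipase Clps 5.06 to 11.39 and Spink1 9.24 to 13.47. Over the 30 genes, 7 had a range above 4 log2 units. With Sycn, Pnliprp1, Pnliprp2 and Clps had r of 0.15, 0.22 and 0.40 (limma adjusted p = 0.915, 0.858 and 0.628). The mean of the list ranged from 5.96 to 6.32 in formerly obese, 5.90 to 6.63 in obese sulindac, 5.91 to 6.21 in obese and 5.78 to 6.33 in control tumours. It had r = 0.64 and rho = 0.58 with Sycn (permutation p = 0.00215 and 0.0112, adjusted 0.0559 and 0.167). Its r was 0.51 without obese Mouse_113 and obese sulindac Mouse_X, and 0.37 without Klk1.

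Genes of white blood cells were among those that fell as Sycn rose. The most opposed genes were Kat2a (r = -0.81, limma adjusted p = 0.0326), a histone acetyltransferase, Slc2a3 (-0.80, adjusted p = 0.0280), a glucose transporter, Itgam (-0.80, adjusted p = 0.0289), the CD11b integrin of myeloid cells, and Speer6-ps1 (-0.78, adjusted p = 0.0771), which did not pass. With each of the 22 tumours left out in turn, Kat2a passed in 15 fits, Slc2a3 in 17 and Itgam in 16. Among 14 neutrophil genes 1 passed, Cxcr2 (r = -0.76, adjusted p = 0.0416), a chemokine receptor, 2 had a positive r, and the median r was -0.35. Of 11 macrophage and monocyte genes 1 passed, Itgam, and none had a positive r (median -0.47). The neutrophil mean ranged from 6.55 to 7.69 in formerly obese, 6.22 to 8.57 in obese sulindac, 7.15 to 8.25 in obese and 5.92 to 7.62 in control tumours. It had r = -0.72 and rho = -0.68 with Sycn (permutation p = 3.4e-04 and 0.00156, adjusted 0.0177 and 0.0541), and -0.66 without Mouse_113 and Mouse_X. The goblet and neutrophil lists thus moved with Sycn in opposite directions, and what each contributes to the level of Sycn was not tested.

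The 10 genes nearest to Sycn on chromosome 7 had r between -0.51 and 0.43, and 0 passed. The closest, Nccrp1, begins 1.38 kb after Sycn, and its r was 0.43.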

How the data were processed

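The deposited log2 levels of 22203 probe sets on 22 Clariom S arrays were used as the authors made them, with Transcriptome Analysis Console 4.0 per the submitters' processing notes. How probes were summarised and normalised, and the base of the logarithm, is not given in the sources used. Base 2 was read from the range of 3.34 to 19.49. Gene symbols came from the platform annotation (19572 probe sets with 1 symbol, 2631 unnamed), and a gene with several probe sets was represented by the brightest.

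All arrays were fitted in R 4.3.3 with limma 3.58.1 (lmFit, eBayes), two-sided, with Benjamini-Hochberg adjustment over all probe sets and a threshold of 0.05. No filter was applied. One model held the 4 regimen means and another added the level of a member. The fit was tested on simulated data. Correlations used 100000 permutations, or every order of the tumours for fewer than 10. A gap over 2 log2 units splits tumours into clusters, and correlations planned over 22 tumours were then tested only inside clusters of at least 6. Inside clusters no regimen means were removed, and tumours were permuted across regimens. Per member, the 8 most alike and 4 most opposed genes are named, without Riken clones, predicted genes and chemosensory receptors. One of the genes opposed to Fgf14 is not reported here. List members with the largest r, paralogs and neighbours were added. Other genes were named after their values were seen. The members and the 26 lists were chosen with earlier results of these data known. Titles number the mice, 1 per tumour, apart from Mouse_X. Each array is 1 tumour, and the number of arrays limits the precision. Coordinates and promoters are RefSeq's for GRCm38.p6. Alternatives were rank, no regimen terms, quantile normalization, an SD minimum of 0.5, a trended robust fit, list medians, and leaving out tumours.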

Additional observations from a re-analysis of the deposited data

Results flagged for a closer look

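Of 24 comparisons of the highest or lowest tumour with the rest of its regimen, over 12 groups, 2 stood out by Dixon's ratio. Chance flags about 1 in 20 groups, but that rate does not apply to Myl1, Fgf14 and Sycn, which were chosen for their large spread within regimens, so both are given as a description. Myl1 in obese sulindac Mouse_114 was 13.13, where the next of that regimen was 6.37. Fgf14 in formerly obese Mouse_140 was 13.66, where the next was 6.96.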

How the results depend on the processing

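The count of genes that vary with Fgf14, 188, was 0 with ranks, 0 among the 19 lower tumours, 40 without the 2 tumours farthest from the median, 303 without regimen terms and 310 over probe sets with an SD of at least 0.5; leaving out 1 tumour gave 23 (control 26) to 388 (obese 96). The count for Sycn, 35, was 64 without regimen terms, 77 with the SD minimum, 2 without the 2 farthest tumours, and 7 (control 20) to 65 (formerly obese 150) with 1 left out. With ranks, 22 of the 35 were shared. The count for Myl1 stayed at 0 in each of these settings. Genes changed by sulindac in obesity numbered 0 to 1 with a tumour left out. Inside the 14 tumours low in Myl1, with regimen means in the model, the slopes on Myl1 of Atp6v1fnb (-0.013), Ccin (-0.051), Fads2b (-0.0066) and Rad51c (-0.044) turned negative. Sycn with the acinar list had r = -0.23 for the list median and 0.37 without Klk1, and Fgf14 with the stomach list 0.34 for the median. In the 8 tumours high in Myl1, its r with Fgf14 was -0.027 after removing regimen means and -0.081 to 0.25 with 1 left out, and its r with Sycn was 0.20 without the 2 farthest. In the 14 low tumours the r of Myl1 and Fgf14 was 0.28 without the 2 farthest and -0.40 to 0.019 with 1 left out. The r of Fgf14 and Sycn in the 19 ran from -0.067 to 0.16.

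With 1 tumour left out, none of which gave a call, Fgf14 differences ran from -1.08 to 1.68 (formerly obese minus control), -2.24 to 0.65 (formerly obese minus obese), -0.16 to 2.36 (obese minus control), -1.31 to 0.46 (sulindac minus control) and -1.86 to 0.34 (sulindac minus formerly obese). Those of Myl1 ran from -2.20 to 0.47 (formerly obese minus obese), -1.53 to 0.49 (obese minus control) and -2.08 to 0.68 (sulindac minus formerly obese). Those of Sycn ran from -0.10 to 1.99 (formerly obese minus control), -0.10 to 1.54 (sulindac minus control) and -1.12 to 0.97 (sulindac minus formerly obese). Causes beyond the tumours and genes each setting leaves out were not tested. No paired analysis was possible because the regimens share no replicate numbers. Levels rest on 22 arrays with no background call, so a low level cannot be told from none.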

Other observations

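Further genes that varied with Fgf14 were chosen after their values were seen (limma adjusted p). Smoc2 (r = 0.78, adjusted p = 0.00992), a matricellular protein of intestinal stem cells, and Insm1 (0.74, adjusted p = 0.0313), a zinc-finger factor of endocrine cells, rose with it. Cftr (-0.73, adjusted p = 0.0254), the chloride channel of crypts, and Gucy2c (-0.72, adjusted p = 0.0313), the receptor of guanylin, fell. Sox2 (0.64, adjusted p = 0.0749), a factor of the foregut, and Otop1 (0.66, adjusted p = 0.0623), the proton channel of sour taste cells, did not pass. Of 15 WNT target and stem cell genes, Smoc2 was the 1 to pass with Fgf14, and 12 had a positive r. Of 12 enteroendocrine genes 0 passed, and 9 had a positive r. Insm1 is in neither list. By the mean of the enteroendocrine list, Mouse_26, Mouse_140 and Mouse_113 ranked 2, 3 and 22 of the 22 tumours. Il1r2 (-0.75, adjusted p = 0.0480), a decoy receptor of interleukin 1, fell as Sycn rose.

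Of the 8 genes most like Myl1, 3 lie on chromosome 11, which holds 1475 of 19501 placed genes. Tubg1 (chr11:101119904-101126423) begins 42.2 kb after the end of Naglu (chr11:101070090-101077672), and their levels had r = 0.69 with each other after removal of regimen means. None of these genes passed the test with Myl1.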
